A study of Mus musculus with 25 samples.

Results

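The genes described here are the Wnt pathway genes of the mouse pituitary, 47 genes out of 15768 listed in at least 1 of 2 deposited expression tables. They were chosen by symbol alone: Wnt ligands, R-spondins, Sfrp, Dkk and similar secreted antagonists, frizzled, Lgr and Lrp5/Lrp6 receptors, the ubiquitin ligases Rnf43 and Znrf3, the Dvl, Axin, Apc and beta-catenin proteins, and the Tcf/Lef factors. All 47 are in the table of the long-term experiment and 41 of them are also in the table of the short-term experiment. Wnt2b, Wnt6, Wnt7b, Wnt10b, Wnt11 and Sfrp2 are in the long-term table alone.

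Wnt ligands are secreted proteins that bind a frizzled receptor together with the co-receptor Lrp5 or Lrp6. In the absence of a ligand, a complex built on Axin and Apc marks beta-catenin for destruction, and binding of a ligand holds that complex at the membrane through Dvl proteins, so that beta-catenin accumulates and acts with Tcf/Lef factors on target genes. R-spondins raise the response by removing the ubiquitin ligases Rnf43 and Znrf3, which clear frizzled receptors from the cell surface, and the pathway is known for its part in the formation of the pituitary.

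The mice carried the reverse tetracycline transactivator in the broadly expressed Rosa26 locus and a doxycycline-inducible GFP-shRNA cassette against Rb1 (the shRB strain), built with 1 hairpin, so doxycycline lowers RB and its removal lets RB return. Doxycycline was given in drinking water with sucrose, and the water used after its removal held no sucrose. In the long-term experiment, 3 females had doxycycline for 6 weeks (6w+dox) and 2 females and 2 males for 12 weeks (12w+dox). A further 3 females and 2 males had it for 6 weeks followed by 6 weeks without it (12w-res). In the short-term experiment, 3 males had 16 weeks of doxycycline (16w +dox) and the other groups had it withdrawn for 1 day (1d -dox, 4 females), 3 days (3d -dox, 3 males) or 5 days (5d -dox, 3 females). Every mouse carried the hairpin and had been given doxycycline, whole pituitaries were sequenced, and libraries were made by poly(A) selection in the long-term and by rRNA depletion in the short-term experiment, so levels are compared within an experiment only. Each library is taken as 1 mouse; where this does not hold, the p-values measure only the spread between these samples.

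Between 19066053 and 28968476 reads per mouse fell on listed genes in the long-term table and between 9573101 and 13036900 in the short-term table. Rb1 was at 3.16 ± 1.70 FPM (the depth-scaled fragment unit of DESeq2 that the authors deposited; SD, n = 3) in 6w+dox, 3.21 ± 0.70 (n = 4) in 12w+dox and 18.2 ± 1.66 (n = 5) in 12w-res. In the short-term table it was at 4.19 ± 0.71 (n = 3) in 16w +dox and 5.12 ± 0.24 (n = 3) in 5d -dox, while GFP went from 1247 ± 192 to 11.7 ± 3.08 FPM. The melanotroph markers Pomc, Pcsk2, Pax7, Tbx19, Drd2 and Oacyl were detected in every mouse, and markers of other hormone cells, fibroblasts, vessels and the neural lobe were present at levels that moved with the groups. Those lists are given below beside the results; in bulk pituitary, fewer cells of a type and less RNA per cell cannot be told apart.

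Per kilobase of transcript, Ctnnb1, which encodes beta-catenin, had the highest level of the 47 genes in each long-term group, with means of 97.1, 90.7 and 92.3 FPM per kb in 6w+dox, 12w+dox and 12w-res. In 12w+dox pituitaries it was followed by the cytoplasmic transducer Dvl1 at 30.4, the ligand Wnt5b at 21.8, the R-spondin Rspo4 at 18.4 and Rnf43 at 13.9 FPM per kb. Rspo4 was in second place in 12w-res at 24.9 FPM per kb. At the low end of 12w+dox were Sfrp2 at 0.0956, Wnt11 at 0.0753 and the R-spondin receptor Lgr6 at 0.0499 FPM per kb. The most abundant ligand on this scale was thus Wnt5b and the most abundant frizzled receptor was Fzd3, at 8.10, 7.59 and 7.62 FPM per kb.

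**Figure D1:**
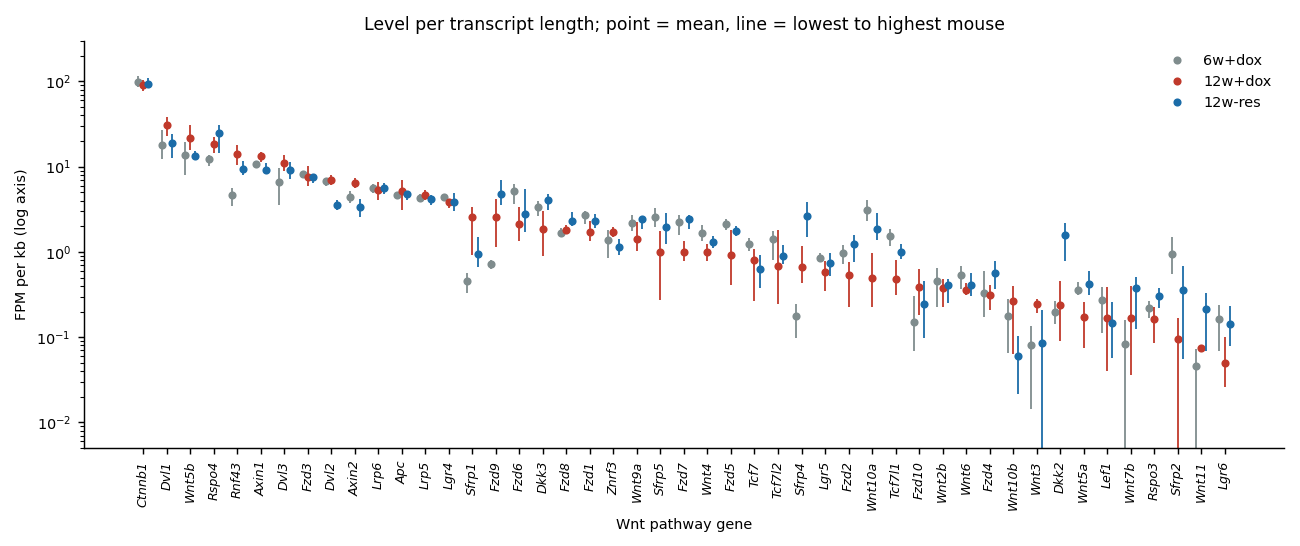
Level of each of the 47 Wnt pathway genes in FPM per kb of the longest transcript (log axis), ordered by the mean in 12w+dox, with the mean as a point and the lowest to highest mouse as a line for 6w+dox (n = 3), 12w+dox (n = 4) and 12w-res (n = 5); lines that leave the axis reach a mouse with 0 reads. Ctnnb1 stands apart near 90.7 to 97.1 FPM per kb, and Sfrp4, Dkk2 and Fzd9 are highest in 12w-res.

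Tumor growth with continued RB loss is addressed by 12w+dox against 6w+dox, and RB return by 12w-res against each of them. The 12w-res mice were also 6 weeks further from the start of doxycycline than the 6w+dox mice. In that comparison time cannot be told apart from RB return. In both, the withdrawal of doxycycline itself and of the sucrose given with it goes with RB return. A gene is called here where the adjusted p of limma was under 0.05 and the fold change exceeded 1 on the log2 scale of FPM plus 0.5, a scale that understates the change of low genes. Between 6 and 12 weeks of doxycycline 11 of the 47 genes were called, 4 higher and 7 lower, where 7.2% of all 15315 genes tested were called (3.15% higher and 4.04% lower). In 12w-res against 12w+dox 9 were called, 8 higher and 1 lower, against 11.3% of all genes (6.24% higher and 5.04% lower). In 12w-res against 6w+dox 5 were called, 4 higher and 1 lower, against 11.6% (5.81% higher and 5.82% lower). The last count lies near the background. With the adjusted p alone 18, 23 and 10 of the 47 genes passed, beside 22.4%, 37.8% and 33.8% of all genes. The 2 groups did not overlap for 17, 13 and 9 of the 47 genes, and for 3866, 5285 and 5015 of all 15315 genes. With so few mice a lack of overlap is thus common. The median log2 fold change of the 47 genes was -0.09, 0.34 and -0.06 in these comparisons, and that of all genes was -0.01, 0.00 and -0.02. The comparisons share groups, so they are not independent of each other.

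Reads of Pomc alone made up 39.1% to 43.2% of a 12w-res library and 12.9% to 32.2% of the others in the long-term table, and scaling by total reads in place of size factors put the median over all genes (log2 fold change) at 0.29, -0.61 and -0.33 in the order above. With that scaling the calls became 8 higher and 4 lower, 3 higher and 10 lower, and 3 higher and 4 lower. Changes below are therefore relative to the bulk of other genes. The calls of Fzd6, Fzd7 and Sfrp5 in the first comparison, of Dkk3, Fzd2, Fzd5, Fzd7 and Wnt5a in the second and of Wnt7b in the third were lost with it.

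The 6w+dox mice were all females and the 12-week groups held both sexes, so sex is partly confounded with the comparisons against 6w+dox. With females alone, which leaves fewer mice, the calls of Fzd5, Fzd6, Fzd7, Fzd9, Sfrp2, Sfrp4 and Tcf7l1 were lost in 12w+dox against 6w+dox, those of Dkk3, Fzd5, Sfrp1, Wnt10a and Wnt5a in 12w-res against 12w+dox, and that of Sfrp2 in 12w-res against 6w+dox. With sex as a covariate, Fzd6 and Fzd7 in the first of these and Sfrp2 in the last were lost.

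**Figure D2:**
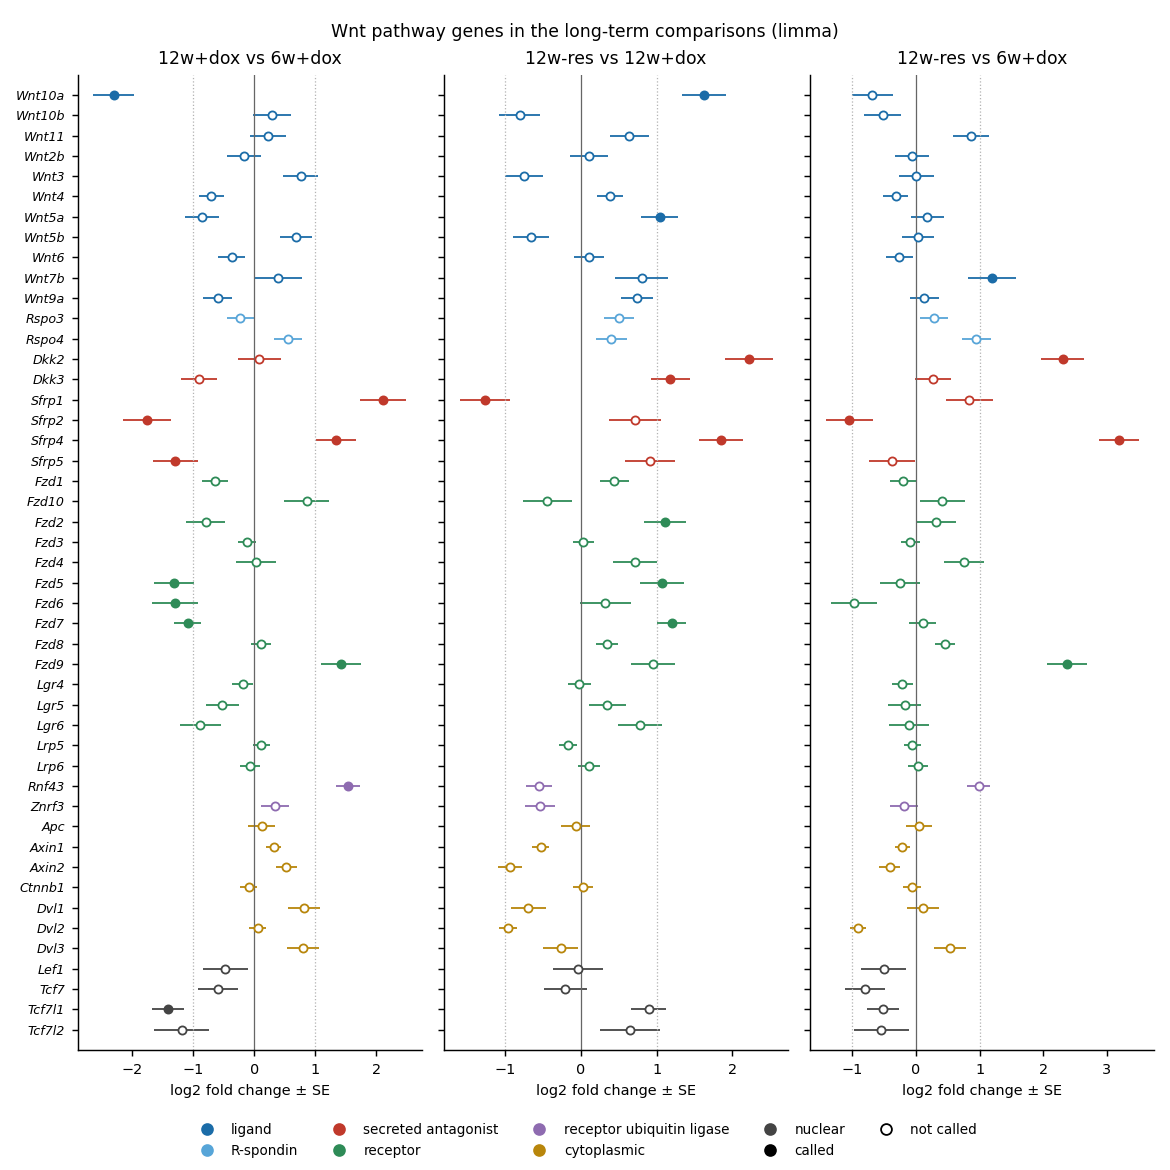
Log2 fold change with its standard error (limma, x axis) for the 47 Wnt pathway genes, coloured by role, in the 3 long-term comparisons; filled points are called and the dotted lines mark a log2 fold change of 1 in either direction. The secreted antagonists hold the widest spread, from -1.76 for Sfrp2 to 2.11 for Sfrp1 in 12w+dox against 6w+dox and up to 3.19 for Sfrp4 in 12w-res against 6w+dox, while Ctnnb1, Apc, Lrp5 and Lrp6 lie near 0.

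Of the 11 ligands, Wnt10a, Wnt5a and Wnt7b were called in a comparison. By comparison 1, 2 and 1 ligands were called, beside 7.2%, 11.3% and 11.6% of all genes. Wnt10a, known for its roles in teeth, hair and skin, was at 5.65, 10.2 and 7.12 FPM in the 6w+dox mice, at 2.41, 1.14, 0.554 and 0.81 FPM in the 12w+dox mice and at 3.59, 4.70, 3.41, 4.19 and 7.02 FPM in the 12w-res mice. Every 12w+dox mouse was below every mouse of the other groups. It fell by 2.31 on the log2 scale between 6w+dox and 12w+dox (SE 0.33, adjusted p = 0.000646, limma) and was higher in 12w-res than in 12w+dox by 1.62 (SE 0.29, adjusted p = 0.000709, limma). Wnt5a, a ligand known for signalling without beta-catenin, was at 3.09, 2.32 and 2.19 FPM in 6w+dox, 1.81, 1.20, 0.524 and 1.37 FPM in 12w+dox, and 3.12, 2.22, 4.19, 2.83 and 2.49 FPM in 12w-res. The 12w+dox mice again lay below all others. Its rise in 12w-res over 12w+dox was 1.04 (SE 0.24, adjusted p = 0.0043, limma), and the fold change was 0.81 without 12w+dox replicate 3, 0.93 without 12w-res replicate 3 and 0.54 with scaling by total reads, each short of the fold needed.

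Wnt7b was at 0, 0.312 and 0.538 FPM in 6w+dox, 1.36, 0.525, 0.123 and 0.279 FPM in 12w+dox and 1.72, 0.423, 1.46, 1.71 and 1.16 FPM in 12w-res. All 3 groups overlapped, and the mouse at 0 reads allows up to 0.17 FPM. Its call in 12w-res against 6w+dox (log2 fold change 1.19, SE 0.38, adjusted p = 0.0267, limma) was lost in 5 of the 8 fits that left out 1 mouse, among them 0.90 with adjusted p = 0.122 without 6w+dox replicate 1. Wnt4, Wnt9a, Wnt3, Wnt5b, Wnt10b and Wnt11 passed the adjusted p in at least 1 long-term comparison with a smaller fold change, between -0.81 for Wnt10b and 0.86 for Wnt11, and Wnt2b and Wnt6 passed in none. Wnt3 passed the filter on reads only through 12w+dox and Wnt11 only through 12w-res, the group where each was highest. Wnt5b, the ligand highest per length, was at 19.0 to 46.0 FPM in 6w+dox, 37.5 to 72.9 in 12w+dox and 28.5 to 36.1 in 12w-res.

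Neither R-spondin was called. Rspo4, known for its role in nail formation, was at 32.7, 31.7 and 24.1 FPM in 6w+dox, 34.3, 53.1, 48.7 and 38.7 FPM in 12w+dox, and 34.6, 72.8, 51.8, 73.2 and 62.9 FPM in 12w-res. Every 12w-res mouse was above every 6w+dox mouse (log2 fold change 0.95, SE 0.22, adjusted p = 0.00509, limma), while 12w-res and 12w+dox overlapped. Rspo3 ranged from 0.262 to 1.16 FPM over the 12 mice.

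Among the secreted antagonists, Sfrp proteins bind Wnt ligands and Dkk2 binds the co-receptors Lrp5 and Lrp6. The numbers called among the 6 were 4, 4 and 3 in the 3 comparisons, beside 7.2%, 11.3% and 11.6% of all genes. Which antagonists were called differed by comparison, and the first and last of these counts include Sfrp2, which passed the filter on reads only through 6w+dox. Sfrp4 was at 0.99, 0.401 and 0.745 FPM in 6w+dox, 2.34, 1.75, 1.91 and 4.72 FPM in 12w+dox, and 6.14, 9.93, 15.7, 10.5 and 11.4 FPM in 12w-res. The 3 groups did not overlap, in the order 6w+dox, 12w+dox, 12w-res. The log2 fold changes were 1.33 (SE 0.33, adjusted p = 0.012) for 12w+dox over 6w+dox, 1.85 (SE 0.29, adjusted p = 0.000245) for 12w-res over 12w+dox and 3.19 (SE 0.32, adjusted p = 5.09e-06) for 12w-res over 6w+dox, all by limma. Without 6w+dox replicate 2 the first of these was 1.14 with adjusted p = 0.0669 (limma).

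Dkk2 was at 0.99, 0.534 and 0.662 FPM in 6w+dox, 1.67, 0.962, 0.339 and 0.531 FPM in 12w+dox, and 2.91, 7.61, 5.14, 8.15 and 5.25 FPM in 12w-res. Every 12w-res mouse was above all 7 mice on doxycycline. It was higher by 2.22 (SE 0.31, adjusted p = 0.0001) than in 12w+dox and by 2.30 (SE 0.34, adjusted p = 0.000173) than in 6w+dox by limma, and both calls were kept in every alternative and without any single mouse. Dkk3, a member of the Dickkopf family whose action on Wnt signalling is less settled, was at 8.97, 11.6 and 13.2 FPM in 6w+dox, 10.2, 5.22, 2.99 and 6.34 FPM in 12w+dox and 10.6, 13.6, 13.3, 14.8 and 16.0 FPM in 12w-res. The 12w-res mice lay above the 12w+dox mice (log2 fold change 1.18, SE 0.26, adjusted p = 0.00266, limma), with 0.91 without 12w+dox replicate 3 and 0.56 with scaling by total reads.

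Sfrp1 moved the other way. It was at 2.45, 2.14 and 1.45 FPM in 6w+dox, 4.01, 11.9, 14.7 and 14.8 FPM in 12w+dox and 6.55, 4.12, 3.78, 3.07 and 2.93 FPM in 12w-res. All 12w+dox mice were above all 6w+dox mice, and replicate 1 of 12w+dox lay within the range of 12w-res. Sfrp1 was higher by 2.11 in 12w+dox than in 6w+dox (SE 0.38, adjusted p = 0.00234, limma) and lower by 1.27 in 12w-res than in 12w+dox (log2 fold change -1.27, SE 0.34, adjusted p = 0.0086, limma). The second call was lost with females alone (adjusted p = 0.123, limma).

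Sfrp2 was at 2.97, 1.11 and 1.66 FPM in 6w+dox, 0.314, 0.117, 0 and 0.335 FPM in 12w+dox, and 1.25, 0.37, 1.37, 0.472 and 0.111 FPM in 12w-res. The 12w+dox mice lay below the 6w+dox mice (log2 fold change -1.76, SE 0.39, adjusted p = 0.0069, limma), and the mouse at 0 reads allows up to 0.092 FPM. The size depends on what is added before the logarithm and on the model, from -3.32 to -1.25 over the alternatives. The call of lower Sfrp2 in 12w-res than in 6w+dox (-1.05, SE 0.37, adjusted p = 0.042, limma) remained in 3 of 11 alternatives, and in 3 of 8 fits that left out 1 mouse. Sfrp2 passed the filter on reads only through 6w+dox, its highest group, so neither call against 6w+dox is taken as support. Sfrp5 was at 3.73, 6.15 and 4.93 FPM in 6w+dox, 2.09, 0.525, 3.36 and 1.70 FPM in 12w+dox and 5.41, 2.32, 3.19, 4.37 and 3.37 FPM in 12w-res. The 6w+dox and 12w+dox mice did not overlap (-1.29, SE 0.37, adjusted p = 0.0249, limma), and the adjusted p was 0.0538, 0.051 and 0.108 without 12w+dox replicate 2, 12w+dox replicate 4 and 6w+dox replicate 2.

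**Figure D3:**
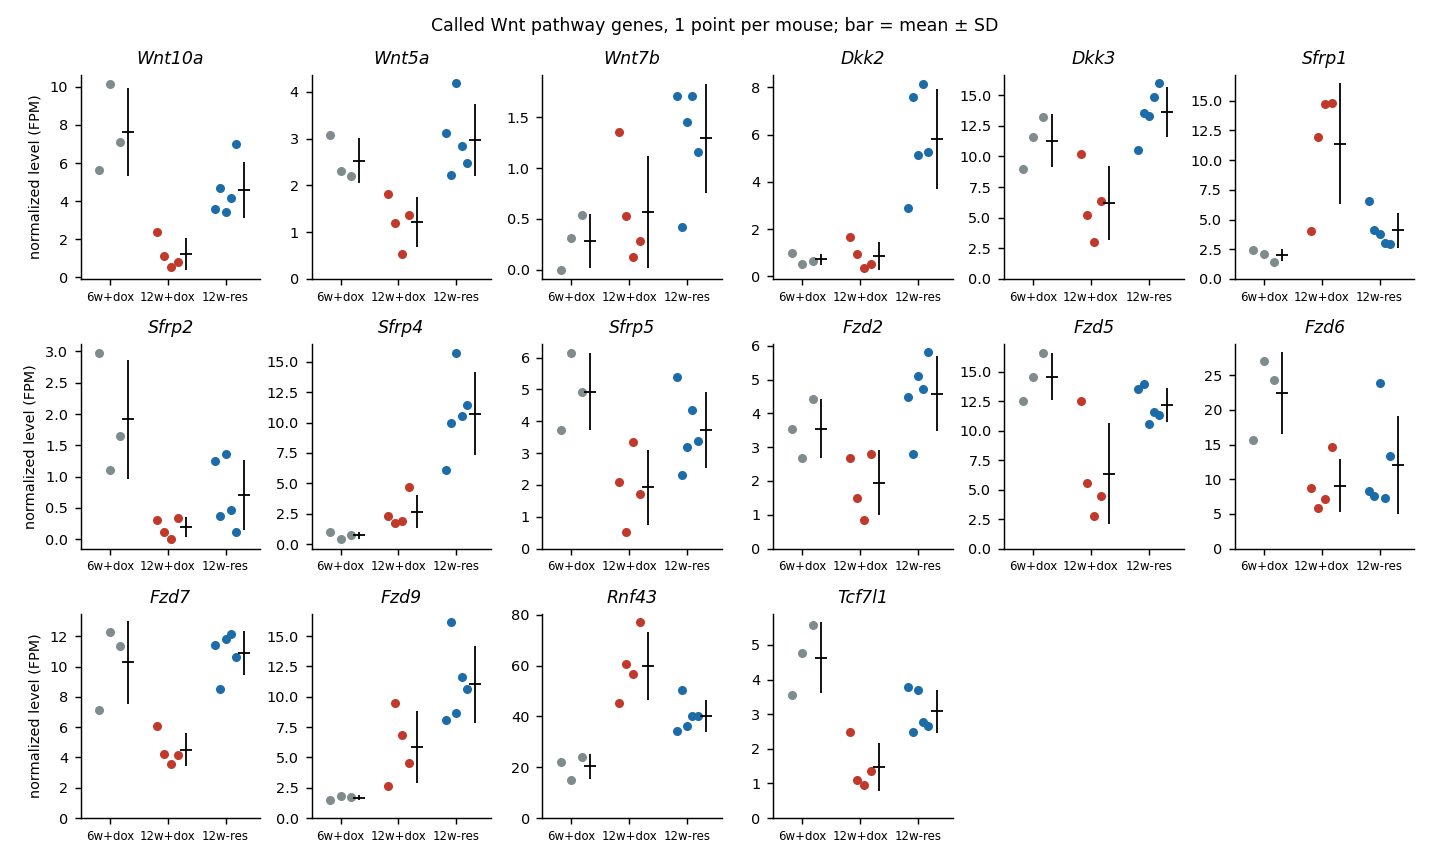
Normalized level (FPM, linear axis) of the 16 Wnt pathway genes called in at least 1 long-term comparison, 1 point per mouse, with the mean and SD beside the points, for 6w+dox (n = 3), 12w+dox (n = 4) and 12w-res (n = 5). Wnt10a, Fzd7 and Tcf7l1 are lowest in 12w+dox, Sfrp1 and Rnf43 are highest there, and Sfrp4, Dkk2 and Fzd9 are highest in 12w-res.

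Among the 15 receptors, Fzd5, Fzd6, Fzd7, Fzd9 and Fzd2 were called in a comparison. By comparison 4, 3 and 1 receptors were called, beside 7.2%, 11.3% and 11.6% of all genes. Fzd7 was at 7.16, 12.3 and 11.4 FPM in 6w+dox, 6.11, 4.26, 3.57 and 4.13 FPM in 12w+dox, and 11.4, 8.51, 11.8, 12.2 and 10.6 FPM in 12w-res. All 12w+dox mice were below all others. It fell by 1.09 from 6w+dox to 12w+dox (SE 0.22, adjusted p = 0.00441, limma) and was higher by 1.20 in 12w-res than in 12w+dox (SE 0.19, adjusted p = 0.000318, limma), with 0.59 in the second comparison with scaling by total reads. The fall from 6w+dox was -0.95 without 6w+dox replicate 2, -0.95 with sex as a covariate and -0.91 with females alone (adjusted p = 0.0727, limma), each short of a call. Fzd5 was at 12.6, 14.6 and 16.6 FPM in 6w+dox, 12.6, 5.596, 2.80 and 4.47 FPM in 12w+dox, and 13.5, 13.9, 10.6, 11.6 and 11.3 FPM in 12w-res. Replicate 1 of 12w+dox lay within the range of 12w-res while the other 3 mice were lower. Its log2 fold change was -1.32 (SE 0.33, adjusted p = 0.0128, limma) for 12w+dox against 6w+dox and 1.07 (SE 0.29, adjusted p = 0.00999, limma) for 12w-res against 12w+dox, and with females alone the first was -0.75 (adjusted p = 0.145, limma). The second call was kept in 7 of 12 alternatives and fell short without 12w+dox replicate 3 (0.78) or replicate 4 (0.98).

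Fzd9 was at 1.46, 1.83 and 1.74 FPM in 6w+dox, 2.62, 9.50, 6.81 and 4.496 FPM in 12w+dox, and 8.11, 16.1, 8.65, 11.6 and 10.7 FPM in 12w-res. Both 12-week groups lay above 6w+dox and overlapped with each other. It was higher by 1.42 in 12w+dox (SE 0.33, adjusted p = 0.00934, limma) and by 2.37 in 12w-res (SE 0.32, adjusted p = 8e-05, limma) than in 6w+dox. Fzd6, which acts in planar cell polarity, was at 15.7, 27.1 and 24.4 FPM in 6w+dox, 8.69, 5.86, 7.18 and 14.6 FPM in 12w+dox and 8.27, 7.56, 23.9, 7.32 and 13.3 FPM in 12w-res. Its fall from 6w+dox to 12w+dox was 1.30 on the log2 scale (log2 fold change -1.30, SE 0.38, adjusted p = 0.0259, limma), with adjusted p = 0.0688, 0.0557 and 0.111 without 12w+dox replicate 2, 12w+dox replicate 3 and 6w+dox replicate 2. Fzd2 was at 3.55, 2.67 and 4.43 FPM in 6w+dox, 2.69, 1.49, 0.832 and 2.79 FPM in 12w+dox and 4.47, 2.80, 5.10, 4.72 and 5.80 FPM in 12w-res. The 12w+dox and 12w-res mice did not overlap (1.11, SE 0.28, adjusted p = 0.00657, limma), with 0.85 without 12w+dox replicate 3 and 0.56 with scaling by total reads.

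The sequences before the RefSeq start (GRCm38.p6) are shown for 4 of the 8 genes called in at least 2 comparisons. The others had no promoter entry or no bases left to print. Fzd5 and Fzd7 were called lower in 12w+dox than in 6w+dox and higher in 12w-res than in 12w+dox. Dkk2 was called higher in 12w-res than in either other group, and Fzd9 higher in both 12-week groups than in 6w+dox. Capitals mark the TCF/LEF letters NNCAAAG with A or T at each N, or the E2F letters TTTNNCGC with C or G at each N, on either strand. Bases that an annotation puts in an exon of the gene are left out, so that the runs differ in length.
Fzd5, chr1:64737752-64738000, minus strand: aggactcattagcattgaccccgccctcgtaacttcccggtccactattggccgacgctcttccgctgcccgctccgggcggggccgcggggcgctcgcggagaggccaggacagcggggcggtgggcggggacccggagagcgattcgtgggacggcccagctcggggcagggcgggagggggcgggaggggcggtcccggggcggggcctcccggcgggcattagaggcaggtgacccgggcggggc
Fzd7, chr1:59481897-59482146, plus strand: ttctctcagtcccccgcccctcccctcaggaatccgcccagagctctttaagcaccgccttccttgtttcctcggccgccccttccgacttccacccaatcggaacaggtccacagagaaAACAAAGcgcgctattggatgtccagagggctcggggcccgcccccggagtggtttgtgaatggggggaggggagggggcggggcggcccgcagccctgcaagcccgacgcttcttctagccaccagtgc
Fzd9, chr5:135251231-135251297, minus strand: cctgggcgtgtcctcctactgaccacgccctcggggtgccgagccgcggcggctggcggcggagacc
Dkk2, chr3:132085042-132085265, plus strand: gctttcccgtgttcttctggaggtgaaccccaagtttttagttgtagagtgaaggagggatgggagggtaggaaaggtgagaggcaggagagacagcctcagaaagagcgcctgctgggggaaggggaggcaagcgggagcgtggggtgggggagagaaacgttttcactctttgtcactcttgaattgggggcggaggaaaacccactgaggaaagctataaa

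Of these runs the one of Fzd7 holds a match, to the TCF/LEF letters 130 bases before its start. In the 250 bases before each start, 5 of 40 windows of 30 Wnt pathway genes with an entry held TCF/LEF letters (12.5%) and 14.8% of all 32851 windows did. The E2F letters were in 2 of the 40 windows (5%), those of Sfrp5 and Wnt11, and in 1.86% of all windows. The median share of G and C was 67.4% in the 40 windows and 52.4% in all, so neither pair of shares compares windows of like composition. A match is a run of letters and shows no binding.

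The co-receptors Lrp5 and Lrp6 were not called. Lrp5 was at 37.7, 42.1 and 34.8 FPM in 6w+dox, 35.7, 46.3, 37.4 and 47.2 FPM in 12w+dox, and 31.8, 37.8, 32.8, 41.0 and 40.7 FPM in 12w-res, which overlapped throughout. Lrp6 was at 51.8, 46.3 and 58.0 FPM, 58.6, 42.7, 38.0 and 61.6 FPM, and 44.4, 59.5, 57.03, 55.2 and 50.3 FPM in the same order, and the groups again overlapped. Their log2 fold changes lay between -0.17 and 0.12 over the 3 comparisons, with SE of 0.12 to 0.17 and adjusted p of 0.282 or more (limma). Fzd1, Fzd8 and Lgr6 passed the adjusted p in 1 comparison each with -0.65, 0.45 and 0.78, and Fzd3, Fzd4, Fzd10, Lgr4 and Lgr5 in none.

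The ubiquitin ligase Rnf43 was at 22.01, 14.9 and 23.9 FPM in 6w+dox, 45.2, 60.5, 56.6 and 77.3 FPM in 12w+dox, and 34.2, 50.2, 36.0, 40.03 and 40.3 FPM in 12w-res. All 12w+dox mice were above all 6w+dox mice, and 12w-res lay above 6w+dox and overlapped with 12w+dox in 1 mouse. Rnf43 rose by 1.54 (SE 0.19, adjusted p = 0.000297, limma) from 6w+dox to 12w+dox and was called in each alternative. The fold changes of 12w-res, -0.56 against 12w+dox (adjusted p = 0.0194, limma) and 0.98 against 6w+dox (adjusted p = 0.00118, limma), passed the adjusted p alone. Znrf3, its relative, passed with -0.54 in 12w-res against 12w+dox (adjusted p = 0.0477, limma).

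Of the 7 cytoplasmic members none was called. Axin2, part of the destruction complex and itself a widely used reporter of beta-catenin activity, was at 16.0, 19.0 and 22.02 FPM in 6w+dox, 29.3, 25.4, 23.8 and 31.7 FPM in 12w+dox, and 15.8, 17.9, 13.9, 10.9 and 12.6 FPM in 12w-res. All 12w+dox mice were above all others. The log2 fold change was 0.53 (SE 0.18, adjusted p = 0.0454, limma) from 6w+dox to 12w+dox and -0.94 (SE 0.16, adjusted p = 0.000379, limma) in 12w-res against 12w+dox, both short of the fold needed for a call. The second ranged from -1.58 to -0.90 over the alternatives and from -1.03 to -0.86 on leaving out 1 mouse. Some of these fits thus passed the fold needed. Ctnnb1 was at 420, 324 and 312 FPM in 6w+dox, 352, 313, 278 and 372 FPM in 12w+dox, and 393, 308, 331, 327 and 312 FPM in 12w-res, with log2 fold changes of -0.09, 0.03 and -0.07 (SE 0.13 to 0.15). Apc, the scaffold of the destruction complex, was at 56.7, 56.2 and 63.9 FPM, 81.9, 56.2, 40.2 and 89.9 FPM, and 51.6, 62.9, 64.1, 59.8 and 66.6 FPM, with 0.12, -0.07 and 0.05 (SE 0.19 to 0.21). The groups of both genes overlapped. In GENCODE vM21, 14.6% of the exonic bases of Ctnnb1 are also exonic in Ulk4 on the other strand, and whether strand was used in counting is not given in the sources used here.

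The transducers of the Dvl family differed among themselves. Dvl2 was at 30.8, 39.96, 33.1 and 37.1 FPM in 12w+dox and 16.8, 19.0, 15.8, 16.9 and 20.3 FPM in 12w-res, with no overlap (log2 fold change -0.97, SE 0.12, adjusted p = 3.41e-05, limma). Dvl1 and Dvl3 were higher in 12w+dox than in 6w+dox by 0.81 and 0.80 (adjusted p = 0.0396 and 0.0434, limma), and 1 of the 6w+dox mice reached into the 12w+dox range for each. Axin1 was lower in 12w-res than in 12w+dox by 0.53 (log2 fold change -0.53, adjusted p = 0.00211, limma).

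Of the 4 nuclear factors Tcf7l1, which represses target genes in several tissues, was called. It was at 3.55, 4.77 and 5.59 FPM in 6w+dox, 2.48, 1.11, 0.955 and 1.37 FPM in 12w+dox, and 3.80, 2.48, 3.69, 2.77 and 2.65 FPM in 12w-res. The 12w+dox mice lay below 6w+dox without overlap (log2 fold change -1.41, SE 0.26, adjusted p = 0.00276, limma), and the rise to 12w-res was 0.90 (SE 0.23, adjusted p = 0.00751, limma). Lef1 was at 0.408, 1.16 and 1.41 FPM, 1.43, 0.146, 0.524 and 0.363 FPM, and 0.468, 0.211, 0.956, 0.354 and 0.663 FPM in 6w+dox, 12w+dox and 12w-res, which overlapped, with log2 fold changes of -0.47, -0.04 and -0.51 (SE 0.33 to 0.37). Tcf7 and Tcf7l2 passed in no comparison, and Tcf7l2 reached 6.66 FPM in 1 12w+dox mouse and 0.904 to 1.37 FPM in the other 3.

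Other genes of the pathway were taken from 3 textbook lists. The share of all genes called was 7.2%, 11.3% and 11.6%, as above. Of 30 measured genes of the further machinery, 3, 0 and 2 were called in the 3 comparisons, shares near or below that background, among them Tnks, a regulator of Axin, at 1.66 and the glypicans Gpc3 and Gpc4 at -2.38 and -2.39 in 12w+dox against 6w+dox. Of 27 genes of beta-catenin-independent signalling 3, 1 and 2 were called, Daam2 with 1.39 in 12w-res against 12w+dox and 1.10 against 6w+dox. Of 16 measured target genes of beta-catenin, 4 were called lower in 12w+dox than in 6w+dox (Ccnd1 at -1.49, Bmp4 at -1.43, Cyr61 at -1.05 and Sox9 at -1.03), and 4 higher in 12w-res than in 12w+dox (Jag1 at 1.52, Wisp1 at 1.42, Bmp4 at 1.15 and Sox9 at 1.14). Jag1 and Wisp1 were also higher in 12w-res than in 6w+dox, by 1.58 and 2.10. Sox9 is also a marker of stem and folliculostellate cells.

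Markers of other cells moved with these groups. In 12w-res all 6 of 6 fibroblast markers were called higher than in 12w+dox, with a summed level of 495 to 1152 FPM against 80.3 to 308, and so were 6 of 6 pericyte and smooth muscle markers, with 518 to 631 against 133 to 313 FPM. Of the 6 endothelial markers 5 were called higher, with 186 to 253 against 57.2 to 120 FPM. In 12w+dox against 6w+dox 5 of 6 neural lobe markers and 4 of 6 markers of other hormone cells were called lower, with sums of 6.995 to 16.2 against 50.2 to 141 FPM and of 1175 to 12559 against 57280.3 to 92566 FPM. In the same comparison 3 of 6 fibroblast and 2 of 6 endothelial markers were called lower. In 12w-res 2 of 6 markers of other hormone cells were called higher than in 12w+dox, and 5 of 6 neural lobe and 3 of 6 other hormone markers were called lower than in 6w+dox. Against 6w+dox 2 fibroblast, 1 endothelial and 4 pericyte and smooth muscle markers were called higher. Of the 6 macrophage markers 0, 0 and 1 were called in the 3 comparisons, all 6 passing the adjusted p with smaller rises in 12w-res against 12w+dox, and of the 5 measured stem and folliculostellate markers 2 were called lower, 1 higher and 0. Of the 6 melanotroph markers 2, 1 and 1 were called, each higher. In 12w-res against 12w+dox, however, 4 of the 6 had a fold change below 0, and 1 passed the adjusted p higher and 2 lower. Against 6w+dox 4 passed it higher and 1 lower in 12w-res. No marker of these lists was at 0 in a long-term mouse. Their part in the changes of Wnt10a, Wnt5a, Fzd2, Fzd5, Fzd6, Fzd7, Fzd9, Dkk2, Dkk3, Sfrp1, Sfrp2, Sfrp4, Sfrp5, Wnt7b, Rnf43 and Tcf7l1 was not tested.

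**Figure D4:**
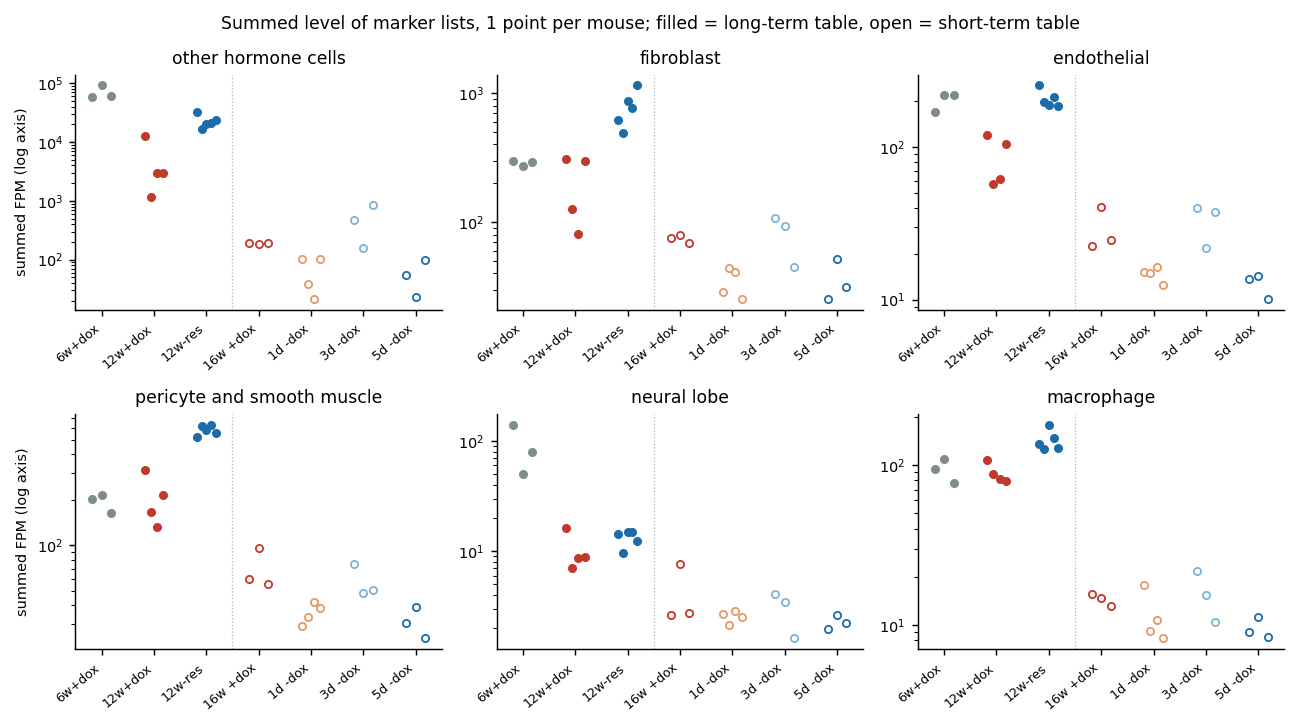
Summed FPM of 6 marker lists (log axis), 1 point per mouse, filled for the long-term and open for the short-term table, in the groups named on the x axis. Fibroblast and pericyte markers are highest in 12w-res (495 to 1152 and 518 to 631 FPM), and neural lobe markers are highest in 6w+dox (50.2 to 141 FPM); the library preparation differs between filled and open points.

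In the short-term experiment, which asks what follows within days of doxycycline withdrawal, none of the 40 tested members was called at 1, 3 or 5 days against 16w +dox, or between 5 and 1 days. Of all 13958 genes tested, 0.043%, 0.129%, 0.193% and 0.0143% were called in these comparisons. With the adjusted p alone 1, 1, 0 and 0 members passed, beside 0.1%, 0.358%, 0.509% and 0.0143% of all genes. At an unadjusted p under 0.05, 8, 7, 6 and 2 of the 40 members were found by limma, beside 13.1%, 16.6%, 13.5% and 6.33% of all genes. The 2 groups did not overlap for 4, 7, 9 and 5 of the 40 members, and for 1562, 3018, 2691 and 1089 of all 13958 genes. By edgeR no member was called in any of the 4 and by DESeq2 1 was, Fzd7 at 1 day. Wnt3, at 0 to 0.398 FPM, did not pass the filter on reads. The mice of 16w +dox and 3d -dox were males and those of 1d -dox and 5d -dox females, so that sex cannot be told apart from time in the comparisons of 1 and 5 days with 16w +dox.

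Fzd7 was at 1.62, 1.87 and 1.40 FPM in 16w +dox, 0.722, 0.519, 0.548 and 0.795 FPM in 1d -dox, 1.76, 1.41 and 1.73 FPM in 3d -dox, and 0.785, 1.25 and 1.10 FPM in 5d -dox. The female groups lay below 16w +dox without overlap, and 3d -dox overlapped it. The log2 fold change at 1 day was -0.90 (SE 0.15, adjusted p = 0.0435, limma), under the fold needed on a scale that understates the change of low genes. Over the alternatives it ranged from -1.33 to -0.68. At the same time fibroblast markers summed to 25.5 to 44.1 FPM in 1d -dox against 69.0 to 79.8 in 16w +dox. Pericyte and smooth muscle markers summed to 29.0 to 41.9 against 55.1 to 95.5 FPM. Endothelial markers were at 12.5 to 16.4 against 22.4 to 40.3 FPM and those of other hormone cells at 21.4 to 101 against 184 to 193 FPM. In each of these last lists 1 marker was called lower. The part of the 4 lists in the result was not tested.

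Rspo4 was at 27.9, 20.2 and 30.7 FPM in 16w +dox, 26.0, 27.3, 21.5 and 25.6 FPM in 1d -dox, 13.6, 15.6 and 11.4 FPM in 3d -dox, and 22.1, 23.0 and 34.7 FPM in 5d -dox. Every 3d -dox mouse lay below every other mouse. Its log2 fold change at 3 days was -0.92 (SE 0.18, adjusted p = 0.0431, limma) between groups of the same sex. The melanotroph markers summed to 13029 to 29655 FPM in 3d -dox against 35678 to 38845 in 16w +dox, without overlap, and those of other hormone cells to 157 to 840 against 184 to 193 FPM. None of the 6 melanotroph markers passed, with Pomc at -0.85 (adjusted p = 0.367, limma) and Pcsk2 at -0.53 (adjusted p = 0.153, limma). The log2 fold changes of the 6 were above 0 for 3 and below 0 for 3, with a median of -0.01. All 6 markers of other hormone cells were above 0, and 1 was called higher. The part of these lists in the difference was not tested. The R-spondin receptor Lgr5 was at 1.82, 1.16 and 1.03 FPM in 3d -dox and 0.187 to 0.649 FPM in 16w +dox, without overlap, and did not pass (log2 fold change 0.95, SE 0.24, adjusted p = 0.0957, limma).

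The members at the centre of the pathway passed in none of the 4 short-term comparisons. Ctnnb1 ranged from 51.4 to 64.0 FPM and Axin2 from 12.7 to 17.8 FPM over the 13 mice, Apc from 63.2 to 81.9 FPM, Lrp5 from 18.03 to 25.6 FPM and Lrp6 from 41.7 to 52.8 FPM. Their log2 fold changes in the 4 comparisons lay between -0.21 and 0.10. The lowest was that of Apc at 5 days, where the 5d -dox mice lay below the 16w +dox mice without overlap (SE 0.07, adjusted p = 0.234, limma). Lef1 was at 0 to 0.217 FPM in 12 mice and at 1.24 FPM in 1 3d -dox mouse.

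**Figure D5:**
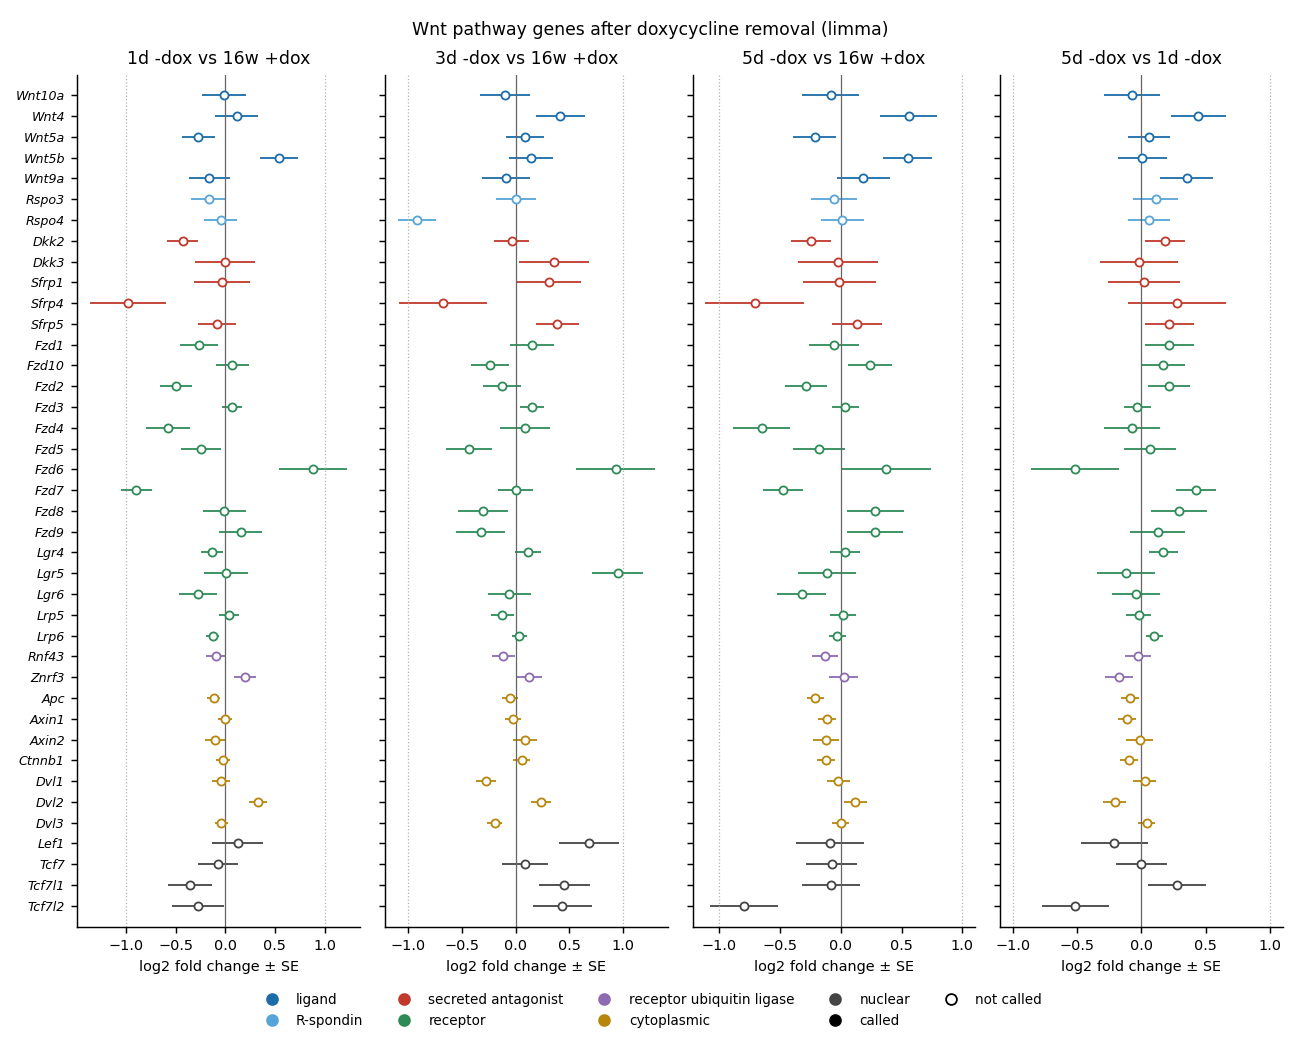
Log2 fold change with its standard error (limma, x axis) for the 40 Wnt pathway genes tested in the short-term experiment, coloured by role, in the 4 comparisons; no point is filled because none was called, and the dotted lines mark a log2 fold change of 1 in either direction. Fzd7 lies at -0.90 at 1 day and Rspo4 at -0.92 at 3 days.

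The groups 12w+dox and 12w-res hold both sexes, which allows the effect of RB return to be compared between them. None of the 47 genes differed at an adjusted p under 0.05 (limma interaction), where 0.0326% of all genes did, and 1 did at an unadjusted p under 0.05, where 2.74% of all genes did. That gene was Fzd5, whose log2 fold change was larger in males than in females by 1.43 (adjusted p = 0.9997, limma), and it is named after its value was seen. There were 2 or 3 mice of a sex in each group.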

How the data were processed

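Pituitary RNA of 25 mice was sequenced as paired-end reads on a NovaSeq. Per the labels and methods, the authors aligned reads to mm10, counted them on RefSeq genes and scaled them with DESeq2; the counting tool and strand setting are not given in the sources used here. The deposited signal is the read count of a gene divided by size factors (FPM). All values of both files, 100%, were whole reads within 0.1 read, so that reads were recovered from them. In the short-term file 4 lines that name no gene were left out.

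A gene was tested where over 50% of the mice of any one group had 10 reads or more (15315 and 13958 genes). Values were taken as log2(FPM + 0.5) and fitted with limma 3.58.1 (R 4.3.3, trended variance), with all groups of a file in 1 fit and Benjamini-Hochberg adjustment over all genes tested. Calls needed an adjusted p below 0.05 together with a log2 fold change above 1 in size. On the recovered reads, edgeR 4.0.16 called 1289, 2162 and 2098 genes and DESeq2 1.42.0 called 1452, 2240 and 2198 in the long-term comparisons, in the order of the report, beside 1102, 1727 and 1782 with limma. Alternatives also covered scaling, pseudocount, filter, sex, the samples in the fit and leaving out each mouse. The fits were tested on simulated data.

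Every called member and Ctnnb1, Apc, Axin2, Lef1, Lrp5 and Lrp6 are given by mouse, and the others by ranges or fold changes, except that Rspo4, Dvl2 and Lgr5 were given by mouse after their values were seen. Members, marker lists and pathway lists were chosen with earlier results of these data known. Deviations of mice with the same replicate number correlated at -0.17 to 0.24 (10 long-term pairs) and -0.21 to 0.17 (18 short-term pairs), so numbers were not taken to pair mice. The 34 pairs of replicate libraries differed beyond counting noise (chi-square per degree of freedom 4.01 or more). Gene positions and promoters are from RefSeq (GRCm38.p6), and lengths are those of the longest GENCODE vM21 transcript, each matched for 47 members (promoters for 30).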

Additional observations from a re-analysis of the deposited data

Results flagged for a closer look

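The values of 1 gene in 1 group of 4 or 5 mice were taken as a set. Of 135 such sets 7 held a mouse far from the others by Dixon's ratio (5.19%), and chance alone would mark about 1 in 20 sets. The sets share the same mice, so they are not independent of each other. In 12w+dox, Fzd8 was at 12.3 FPM in replicate 2 against 10.2 to 10.3 in the others, and Tcf7l2 at 6.66 FPM in replicate 1 against 0.904 to 1.37. In 12w-res, Ctnnb1 was at 393 FPM in replicate 1 against 308 to 331, and Fzd3 at 82.7 FPM in replicate 2 against 98.3 to 104. In 1d -dox, Axin1 was at 20.9 FPM in replicate 1 against 18.3 to 18.5, Lgr5 at 0.819 FPM in replicate 4 against 0.335 to 0.349, and Lrp5 at 24.3 FPM in replicate 2 against 21.9 to 22.3. None of these genes was called.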

How the results depend on the processing

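Counts of called Wnt pathway genes moved by more than 1.5 times as follows, and the cause was not tested. For 12w+dox against 6w+dox, 11 became 4 with females only and 18 with no minimum fold change, and leaving out 1 mouse gave 7 to 15, the 7 without 6w+dox replicate 2. For 12w-res against 12w+dox, 9 became 15 with 0.1 added before the logarithm and 23 with no minimum fold change, and leaving out 1 mouse gave 8 to 14, the 14 without 12w+dox replicate 1. For 12w-res against 6w+dox, 5 became 3 with 1 added, 2 with 10 reads required in every sample, 3 with the replicate block and 10 with no minimum fold change, and leaving out 1 mouse gave 4 to 6. At 1 day, 0 became 1 (Fzd7) with 0.1 added, with DESeq2 and with no minimum fold change, and at 3 days 1 with no minimum fold change, with 0 to 1 on leaving out 1 mouse (Rspo4 without 16w +dox replicate 2 or 3d -dox replicate 2). The sex difference stayed at 0 throughout. The replicate block left 9, 9 and 3 calls in the long-term comparisons and 0 in the others, without those of Fzd6 and Sfrp5 in the first, Sfrp1 in the second and Sfrp2 and Wnt7b in the third.

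Fold changes of the genes near 0 changed sign: with scaling by total reads, Ctnnb1 was 0.23 and -0.63 and Lrp6 0.25 and -0.55 for 12w+dox against 6w+dox and 12w-res against 12w+dox, and Apc -0.28 and Lrp6 -0.30 for 12w-res against 6w+dox. With the replicate block, Apc was -0.069 and Lrp6 -0.00822 for 12w-res against 6w+dox. In 12w-res against 12w+dox, Ctnnb1 was -0.040 with females only, and Lef1 0.011 with 0.1 added and 0.018 with females only. On leaving out 1 mouse, in the order of the comparisons, Ctnnb1 ranged over -0.17 to 0.039, -0.051 to 0.089 and -0.15 to 0.066, Apc over -0.044 to 0.34 and -0.29 to 0.091 in the first 2, Lef1 over -0.26 to 0.27 in the second, Lrp5 over -0.12 to 0.016 in the third, and Lrp6 over -0.18 to 0.050, -0.016 to 0.21 and -0.047 to 0.11. Of 882 values of 45 single-gene results under the alternatives, 779 kept direction and call, 68 kept direction and lost the call, 8 gained it and 27 changed sign. With the numbers of the mice, 1 of 11 long-term and 3 of 12 short-term samples correlated best with a sample of its own number. Depth limits the low genes: 3 reads stand for 0.092 to 0.18 FPM where a long-term mouse had 3 or fewer reads, which was the case for Sfrp2, Wnt3, Wnt7b, Wnt10b and Wnt11.

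Over all genes, counts of calls moved by more than 1.5 times from 1102 to 597 with females only and from 1727 to 3608 with scaling by total reads in the first 2 long-term comparisons. In the short-term comparisons, in the order of the report, limma called 6, 18, 27 and 2 genes, DESeq2 113, 104, 139 and 7, and limma on the compared groups alone 3, 1, 5 and 2. The replicate block gave 8, 1, 18 and 2, scaling by total reads 2, 18, 22 and 2, and 0.1 or 1 added before the logarithm 14, 16, 37 and 2 or 2, 13, 19 and 2. At 1 day the filter of 10 reads in every sample left 3.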
